A study of Mus musculus with 56 samples.

Results

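Cgnl1, Itpr3, Afap1l2, Atmin and Syt16 are 5 protein-coding genes that were chosen by name from the comparison of Fmr1 knockout (KO) with wild-type (WT) mouse brain, where their RNA differed between the genotypes in at least 1 region. They are 5 of 15777 genes in the brain table, and all 5 passed the filter on low counts in each of the 3 regions. Because brain KO against WT chose them, their differences in that comparison are given as a description, with no test. Wild-type region differences, the peripheral tissues and the cell line did not choose them, so the tests stand there.

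The series holds 56 RNA sequencing samples in 19 groups. WT and Fmr1 KO mice gave 3 samples per genotype of each of 3 brain regions (cerebellum, cortex and hippocampus) and of testis, liver and muscle; the labels used here give no age, sex or strain. N2a, a mouse neuroblastoma cell line, received an siRNA that targets Fmr1 (siFmr1, 3 samples) or a control siRNA without target (siNT, 2 samples), where siRNA is the short RNA used for knockdown. In a second N2a experiment with 3 samples per group, a plasmid was transfected along with the siRNA by Lipofectamine. Here siNT, siFmr1 and siMbnl1 were each combined with the control plasmid pcDNA, siFmr1 also with a FLAG-nuclear MBNL1 construct (nMBNL1), and siMbnl1 also with a FLAG-cytoplasmic one (cMBNL1). N2a cells are transformed and dividing, and knockdown leaves part of the Fmr1 RNA. Nothing in the labels says that the samples of a group are separate animals or cultures, so p-values measure the spread between these samples.

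Fmr1 encodes FMRP, an RNA-binding protein that regulates the translation and stability of many neuronal messages, and its loss causes fragile X syndrome. MBNL1 is an RNA-binding regulator of alternative splicing. The 5 genes have unrelated products. Cgnl1 encodes paracingulin, a scaffold of tight and adherens junctions. Itpr3 encodes the type 3 inositol trisphosphate (IP3) receptor, a channel that releases calcium from the endoplasmic reticulum. Afap1l2 encodes XB130, an adaptor that binds SRC family kinases and the regulatory subunit of PI3 kinase. Atmin encodes a zinc finger protein that interacts with the DNA damage kinase ATM and drives transcription of the dynein light chain gene Dynll1. Syt16 encodes an atypical synaptotagmin without a transmembrane segment, related in sequence to Syt14.

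In GRCm38 with GENCODE M21 annotation, Cgnl1 spans chr9:71626509-71771602 on the minus strand and Afap1l2 chr19:56912361-57008228, also on the minus strand. Itpr3 spans chr17:27057304-27122223, Atmin chr8:116943393-116960445 and Syt16 chr12:73997661-74273267, all on the plus strand. No 2 of them share a chromosome, and their lengths run from 17.1 kb (Atmin) to 276 kb (Syt16). Exons of antisense genes overlap Itpr3 by up to 142 bases (Itpr3os) and Syt16 by up to 114 bases (Gm29587). Strand use in the authors' counting is not given in the sources used here, so reads of these stretches cannot be assigned with certainty.

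Afap1l2, Atmin and Syt16 are the genes for which every KO library was below every WT library in all 3 brain regions, so their upstream sequences are shown to let a reader compare them. They come from the RefSeq promoter table (GRCm38.p6, 5 of the 5 genes matched), from the 250 bases before the RefSeq start, 5′ to 3′ on the gene's strand. Capitals mark the letters of searched motifs. Syt16 is cut to the 134 bases before the GENCODE start.
Afap1l2, chr19:57008576-57008825, minus strand: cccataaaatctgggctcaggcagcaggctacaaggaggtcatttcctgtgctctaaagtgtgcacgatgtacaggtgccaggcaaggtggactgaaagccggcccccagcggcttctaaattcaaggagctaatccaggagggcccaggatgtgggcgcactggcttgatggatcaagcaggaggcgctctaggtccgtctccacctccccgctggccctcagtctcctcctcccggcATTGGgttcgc
Atmin, chr8:116943143-116943392, plus strand: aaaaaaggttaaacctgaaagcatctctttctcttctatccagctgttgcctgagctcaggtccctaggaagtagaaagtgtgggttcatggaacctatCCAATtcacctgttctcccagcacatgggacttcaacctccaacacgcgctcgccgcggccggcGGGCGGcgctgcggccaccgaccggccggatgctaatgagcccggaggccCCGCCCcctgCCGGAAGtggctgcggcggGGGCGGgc
Syt16, chr12:73997527-73997660, plus strand: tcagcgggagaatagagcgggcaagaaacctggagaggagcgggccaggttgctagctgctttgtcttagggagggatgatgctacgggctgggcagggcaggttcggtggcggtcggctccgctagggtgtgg

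The 3 sequences differ in their motifs. The letters searched, on both strands, were the TATA box TATAAA, the GC box GGGCGG, the CCAAT box, the E-box CACGTG, the cyclic AMP response element TGACGTCA and the ETS factor motif CCGGAAG. Atmin held GGGCGG or its reverse complement 3 times, CCAAT once and CCGGAAG once; no match overlapped another. Afap1l2 held 1 match, CCAAT read as ATTGG on this strand, and no GGGCGG. Syt16 held 1 GGGCGG in the stretch that is not printed. Among 32851 promoters of the same length, 32.7% held GGGCGG, 33.8% CCAAT, 6.91% CCGGAAG, 12.4% TATAAA, 6.02% CACGTG and 1.55% TGACGTCA. Cgnl1 held GGGCGG 2 times, and Itpr3 held GGGCGG and CACGTG 1 time each. None of the 5 windows held TATAAA or TGACGTCA. Their GC content ran from 59.6% (Afap1l2) to 72.8% (Syt16), against a median of 52.4% over all promoters.

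Brain libraries held 26264400 to 41384700 counts. Those of the peripheral tissues and of the earlier N2a experiment held 13230800 to 16268900 counts, and the depth of the second N2a experiment is unknown, because its values are normalized. As a check of the labels, Fmr1 ran from 86.1 to 130 CPM (counts scaled to a common library size, with TMM factors) in WT brain and from 24.1 to 34.5 CPM in KO brain. In the first N2a experiment, the library labelled siNT replicate 2 held 22.4 CPM of Fmr1, nearer to the siFmr1 libraries (2.12 to 14.7 CPM) than to siNT replicate 1 (77.7 CPM). The libraries labelled siNT replicate 2 and siFmr1 replicate 3 correlated at 0.98 with each other and at 0.843 to 0.917 with the other 3 (Pearson, log2 CPM, 10694 genes), so these 2 stand apart across their labels. In the second experiment Fmr1 ran from 418 to 662 normalized counts with siFmr1 and from 2615 to 3604 without it. Granule cell markers followed the dissected regions: 8 cerebellar granule cell markers summed to 6365 to 6922 CPM in cerebellum against 134 to 233 CPM elsewhere. Not every list did so. The 8 hippocampal principal neuron markers summed to 925 to 987 CPM in hippocampus and 1185 to 1305 CPM in cerebellum. The 8 cortical excitatory neuron markers overlapped between cortex (1371 to 1805 CPM) and hippocampus (1529 to 1781 CPM). Of the 6 hippocampal libraries, WT 1 and KO 2 held little choroid plexus RNA, which is described with Cgnl1.

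Syt16 was lower in KO than in WT in every region, and it was the gene whose KO mean was the smallest share of WT in hippocampus and cerebellum. In cortex, WT libraries held 104, 104 and 96.4 CPM, and KO libraries 58.7, 74.0 and 70.6 CPM. In hippocampus, WT libraries held 73.5, 63.8 and 63.0 CPM, and KO libraries 45.0, 43.2 and 39.4 CPM. Genotypes did not overlap in either region. In cerebellum, where Syt16 was near the bottom of its range, WT libraries held 4.18, 4.02 and 3.87 CPM and KO libraries 2.13, 2.16 and 2.13 CPM. These rest on 118 to 161 counts per WT library and 62 to 70 per KO library. KO means were 66.7% of WT in cortex, 63.7% in hippocampus and 53.2% in cerebellum. The fitted log2 differences were −0.58 ± 0.08 (SE, n = 3 per group), −0.65 ± 0.08 and −0.90 ± 0.13. In bulk tissue, fewer cells of a type and less RNA per cell cannot be told apart.

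Afap1l2 was lower in all 3 regions as well, with its KO share of WT nearest to 100% in cerebellum. Cortical WT libraries held 9.57, 11.7 and 10.4 CPM and KO libraries 7.59, 6.58 and 5.68 CPM. Hippocampal WT libraries held 14.7, 14.4 and 14.5 CPM and KO libraries 9.73, 9.01 and 10.4 CPM. Every KO library lay below every WT library in both. Cerebellar WT libraries held 121, 114 and 117 CPM, and KO libraries sat close together at 89.8, 90.6 and 89.3 CPM. KO means were 62.6%, 66.7% and 76.8% of WT in cortex, hippocampus and cerebellum. The fitted log2 differences were −0.67 ± 0.14, −0.58 ± 0.08 and −0.37 ± 0.05.

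Atmin differed most in cortex. WT cortex held 119, 115 and 108 CPM and KO cortex 82.2, 77.5 and 80.9 CPM, a KO mean of 70.2% of WT. WT hippocampus held 83.6, 80.9 and 76.5 CPM and KO hippocampus 66.5, 68.1 and 61.5 CPM, a share of 81.4%. WT cerebellum held 69.6, 72.7 and 70.5 CPM and KO cerebellum 62.8, 61.8 and 60.9 CPM, a share of 87.2%. The groups did not overlap in any region. The fitted log2 differences of Atmin were −0.51 ± 0.06, −0.30 ± 0.06 and −0.19 ± 0.05.

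Itpr3 differed in cerebellum and hippocampus, while its cortical groups overlapped. Cerebellar WT libraries held 27.4, 29.0 and 29.2 CPM and KO libraries 14.6, 17.7 and 17.8 CPM, a KO mean of 58.6% of WT. In hippocampus the values were 7.04, 6.57 and 5.16 CPM in WT and 4.88, 4.56 and 4.89 CPM in KO, a share of 76.3%, and the lowest WT library lay just above the highest KO library. Cortex held 6.08, 7.10 and 4.76 CPM in WT and 5.98, 5.98 and 4.95 CPM in KO, with WT 3 the lowest of the 6. Cortical and hippocampal values rest on 124 to 215 counts per library. The fitted log2 differences of Itpr3 were −0.08 ± 0.17 in cortex, −0.39 ± 0.14 in hippocampus and −0.76 ± 0.08 in cerebellum.

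Cgnl1 separated the genotypes in cerebellum, while its cortical and hippocampal groups overlapped. Cerebellar WT libraries held 119, 122 and 121 CPM and KO libraries 90.5, 83.0 and 91.8 CPM, with a KO mean of 73.1% of WT and a log2 difference of −0.45 ± 0.05. Cortical libraries overlapped, at 22.2, 24.9 and 31.7 CPM in WT and 25.9, 28.3 and 24.9 CPM in KO (log2 difference 0.01 ± 0.13). In hippocampus, WT libraries held 19.5, 87.8 and 63.9 CPM and KO libraries 51.4, 20.7 and 98.5 CPM. Both genotypes spanned nearly the whole range. The fitted hippocampal difference was −0.00 ± 0.61 and ran from −0.68 to 0.45 as single libraries were left out, so a difference of the cerebellar size was not detectable there.

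**Figure D1:**
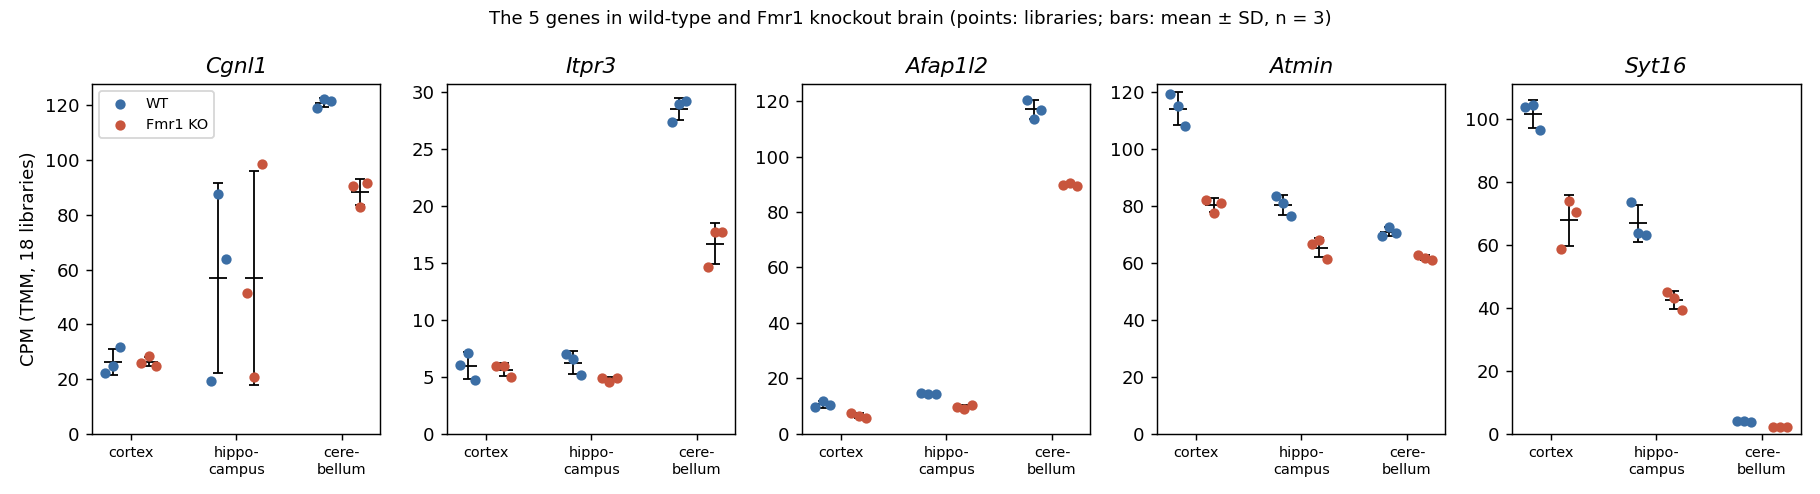
Level of each gene in every brain library, in TMM-scaled CPM on a linear axis that starts at 0, with points for libraries, horizontal ticks for means and bars for SD (n = 3 per group). KO points lie below all WT points in every region for Afap1l2, Atmin and Syt16, while hippocampal Cgnl1 runs from 19.5 to 98.5 CPM.

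Every KO library was below every WT library for 3 of the 5 genes in cortex, 4 in hippocampus and 5 in cerebellum. Over all genes tested this held for 12.8% in cortex, 9.94% in hippocampus and 7.35% in cerebellum. The genes were chosen in this contrast, so their counts are not read against those shares. By edgeR's quasi-likelihood test, 0.0203% of genes in cortex, 0.209% in hippocampus and 0.226% in cerebellum passed an adjusted p of 0.05. The size order of the differences was not the same in the 5 genes. Cortex had the largest difference for Afap1l2 and Atmin, and cerebellum for Cgnl1, Itpr3 and Syt16; a difference between regions was not tested here.

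**Figure D2:**
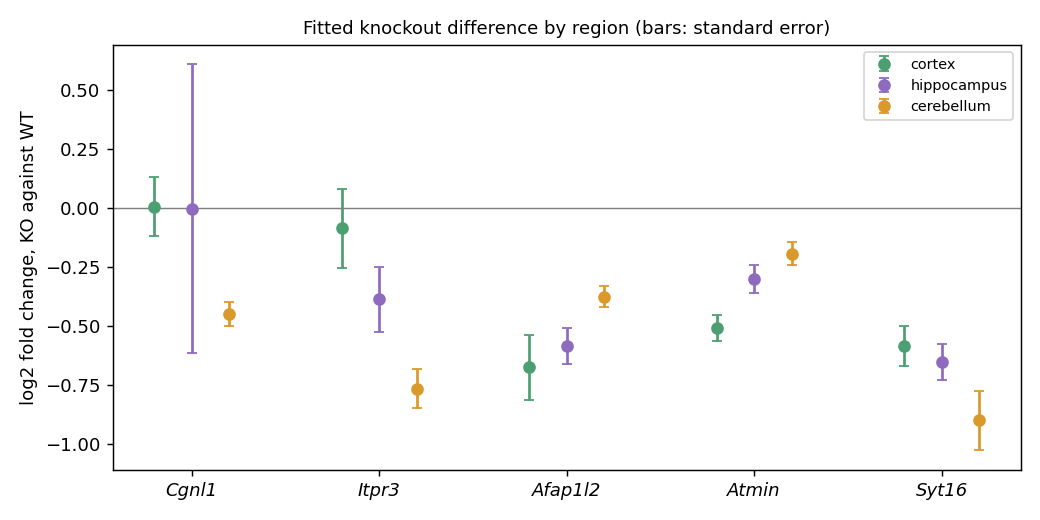
Fitted log2 difference of KO against WT per region (points) with its standard error (bars), from 1 edgeR fit per region. Points for Atmin approach 0 from cortex (−0.51) to cerebellum (−0.19), those for Itpr3 and Syt16 move away from it, and the bar of hippocampal Cgnl1 is the widest at 0.61.

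Some summed markers of other cell types did not overlap between the genotypes in a region. The lists named here are a selection, and none was tested. Among single genes, every KO library was below every WT library for 12.8% in cortex, 9.94% in hippocampus and 7.35% in cerebellum. In hippocampus, 8 oligodendrocyte markers summed to 5367 to 5778 CPM in WT and 4439 to 4576 CPM in KO, and 8 astrocyte markers to 5765 to 6074 CPM in WT and 6271 to 6981 CPM in KO. Markers of cortical excitatory neurons (8 genes) summed to 1529 to 1544 CPM in WT and 1593 to 1781 CPM in KO hippocampus. Those of hippocampal principal neurons (8 genes) overlapped there, at 929 to 987 CPM in WT and 925 to 978 CPM in KO. Oligodendrocyte precursor markers (6 genes) summed to 323 to 333 CPM in WT and 312 to 317 CPM in KO hippocampus. In cortex, 8 mural cell markers ran from 176 to 187 CPM in WT and 164 to 169 CPM in KO. The 4 listed of 5 blood markers ran from 165 to 200 CPM in WT and 138 to 144 CPM in KO cortex. In cerebellum, 8 endothelial markers ran from 252 to 264 CPM in WT and 275 to 279 CPM in KO, while Purkinje cell markers overlapped at 9685 to 10770 CPM over both genotypes. The part of these shifts in the differences of the 5 genes was not tested.

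The hippocampal spread of Cgnl1 ran with RNA of the choroid plexus, the epithelium of the brain ventricles that makes cerebrospinal fluid and expresses transthyretin (Ttr) at high levels. Its 10 marker genes, all of them listed, summed to 236, 8240 and 6121 CPM in the 3 WT hippocampal libraries and to 4182, 189 and 9174 CPM in the 3 KO libraries. Ttr itself was 7.22 CPM in WT 1 and 10.7 CPM in KO 2, against 1876 to 4245 CPM in the other 4. The same 2 libraries had the lowest Cgnl1, at 19.5 and 20.7 CPM. Across the 6 hippocampal libraries, log2 Cgnl1 and the log2 marker sum correlated at 0.981 (Pearson, a description over libraries of 1 region).

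In cerebellum the marker sum was lower in KO on the whole. It was 1979 to 3044 CPM in WT and 954 to 2212 CPM in KO cerebellum, and its correlation with Cgnl1 was 0.816 over 6 libraries. KO 3 was the KO library within the WT range of the sum. In cortex the sum was 373 to 477 CPM in WT and 336 to 754 CPM in KO, with a correlation of 0.567. For Itpr3, Afap1l2, Atmin and Syt16 the cerebellar correlations were 0.63 to 0.69. Those of the same genes were −0.23 to 0.17 in hippocampus and −0.26 to 0.041 in cortex. All of these correlations pool both genotypes. In cerebellum the chosen genes, Cgnl1 included, and the marker sum were lower in KO. The cerebellar correlations therefore cannot separate choroid plexus RNA from genotype. In the 2 hippocampal libraries poor in choroid plexus RNA, 1 per genotype, Cgnl1 was 19.5 CPM in WT and 20.7 CPM in KO, while Syt16 was 73.5 and 43.2 CPM and Afap1l2 14.7 and 9.01 CPM. How far choroid plexus RNA accounts for the cerebellar Cgnl1 difference was not tested.

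**Figure D3:**
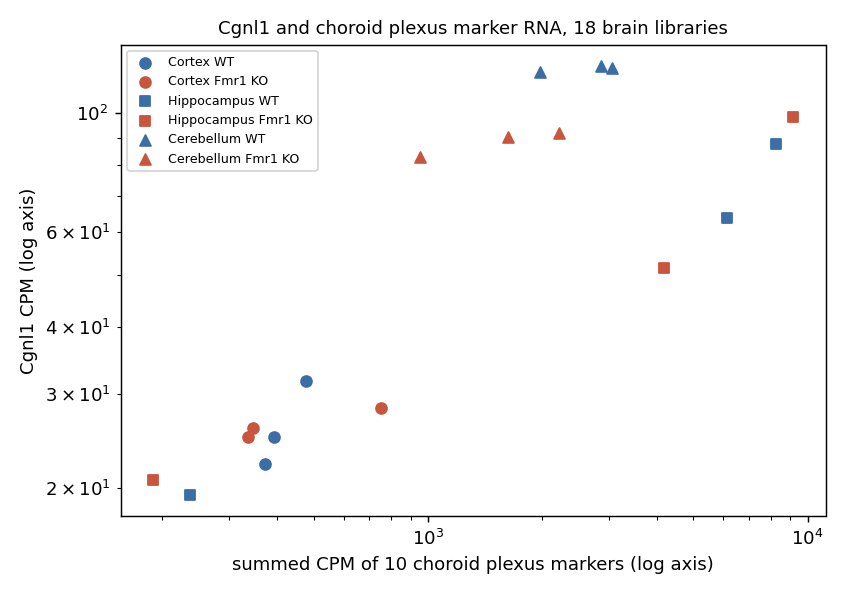
Cgnl1 against the summed level of 10 choroid plexus markers in the 18 brain libraries, both in CPM on log axes, with shape for region and colour for genotype. Hippocampal squares rise together from 189 to 9174 CPM of markers, and the 3 KO triangles of cerebellum (954 to 2212 CPM of markers) lie below and mostly to the left of the 3 WT triangles (1979 to 3044 CPM).

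The regional pattern of the 5 genes in WT brain was tested with edgeR on the 9 WT libraries. All 5 differed between cerebellum and cortex and between cerebellum and hippocampus, and 4 differed between hippocampus and cortex. Most genes differ between these regions: 67.9% of all genes passed for cerebellum against cortex, 68% for cerebellum against hippocampus and 43.4% for hippocampus against cortex. Afap1l2, Itpr3 and Cgnl1 were highest in cerebellum, and Syt16 and Atmin in cortex.

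Afap1l2 was 11.05-fold higher in cerebellum than in cortex (log2 difference 3.47 ± 0.08, edgeR adjusted p = 1.27e-11) and 8.04-fold higher than in hippocampus (adjusted p = 2.25e-11). It was also higher in hippocampus than in cortex, by 0.46 ± 0.08 on the log2 scale (adjusted p = 0.000682). Itpr3 was 4.76-fold higher in cerebellum than in cortex (edgeR adjusted p = 8.69e-08) and 4.58-fold higher than in hippocampus (adjusted p = 9.79e-08), with cortex and hippocampus apart by 0.06 ± 0.15 (adjusted p = 0.795). Syt16 ran the other way. It was 25.3-fold lower in cerebellum than in cortex (log2 difference −4.66 ± 0.09, edgeR adjusted p = 3.69e-12) and 16.6-fold lower than in hippocampus, and lower in hippocampus than in cortex by −0.61 ± 0.07 (adjusted p = 3.84e-05).

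Atmin varied little between regions. It was 1.42-fold lower in hippocampus and 1.61-fold lower in cerebellum than in cortex (edgeR adjusted p = 3.05e-05 and 6.27e-07). The step from hippocampus to cerebellum was −0.18 ± 0.06 (edgeR adjusted p = 0.0139), and it lost its call without hippocampal WT 1 (adjusted p = 0.0612). Cgnl1 was 4.61-fold higher in cerebellum than in cortex (edgeR adjusted p = 0.000368). Its hippocampal comparisons moved with the choroid-rich libraries. Cgnl1 was 1.12 ± 0.39 higher on the log2 scale in hippocampus than in cortex (edgeR adjusted p = 0.0355), but −0.41 ± 0.16 (adjusted p = 0.107) when hippocampal WT 2 and 3 were left out. Leaving out any 1 of cortical WT 1, cortical WT 2, hippocampal WT 2 or hippocampal WT 3 also ended that call (adjusted p 0.0903 to 0.160), as did DESeq2 (adjusted p = 0.0584). Cerebellum against hippocampus was 1.08 ± 0.37 (edgeR adjusted p = 0.0216) with all libraries and 2.61 (adjusted p = 3.37e-07) without the choroid-rich ones. That call ended when any cerebellar WT library was left out (adjusted p 0.0534 to 0.0563).

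Levels of different genes can be compared on the deposited TPM scale, which accounts for length. In WT cortex Syt16 was the highest of the 5 at 104 ± 3.74 TPM (SD, n = 3), followed by Atmin at 61.8 ± 2.58, Cgnl1 at 10.1 ± 1.98, Afap1l2 at 7.23 ± 0.796 and Itpr3 at 1.71 ± 0.330. The order in WT cerebellum was another: Afap1l2 at 86.5 ± 2.89 TPM, Cgnl1 at 50.3 ± 1.01, Atmin at 41.5 ± 0.857, Itpr3 at 8.82 ± 0.376 and Syt16 at 4.45 ± 0.136. Hippocampus resembled cortex in that Syt16 (68.4 ± 5.78 TPM) and Atmin (43.6 ± 2.06) led, with Cgnl1 at 22.04 ± 13.5, Afap1l2 at 9.95 ± 0.106 and Itpr3 at 1.79 ± 0.285.

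Outside the brain, Syt16 was not among the genes of the peripheral tables or of the first N2a table, and Cgnl1 and Afap1l2 were not among those of the first N2a table. Each table holds the genes its authors kept, so an unlisted gene has no value here. Cgnl1 was 22.8 ± 4.34 TPM in WT liver, 9.70 ± 0.977 in testis and 2.35 ± 0.275 in muscle. Atmin was 39.4 ± 0.933 TPM in WT testis, close to its hippocampal and cerebellar levels, 12.2 ± 1.02 in muscle and 3.08 ± 0.237 in liver. Itpr3 was 4.97 ± 0.241 TPM in testis, 1.60 ± 0.555 in muscle and 0.250 ± 0.0755 in liver. Afap1l2 was low in all 3, at 1.52 ± 0.320 TPM in muscle, 0.633 ± 0.0611 in testis and 0.313 ± 0.129 in liver. From the highest level to the lowest, steps of Afap1l2 from cerebellum to hippocampus to cortex to muscle each exceeded the SDs, as did those of Syt16 from cortex to hippocampus to cerebellum. Neighbouring levels of Cgnl1 in liver and hippocampus, in hippocampus and cortex, and in cortex and testis lay within their SDs. So did those of Atmin in hippocampus and cerebellum and those of Itpr3 in hippocampus, cortex and muscle. Tables of different tissues were made separately, so these levels are set side by side without a test.

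**Figure D4:**
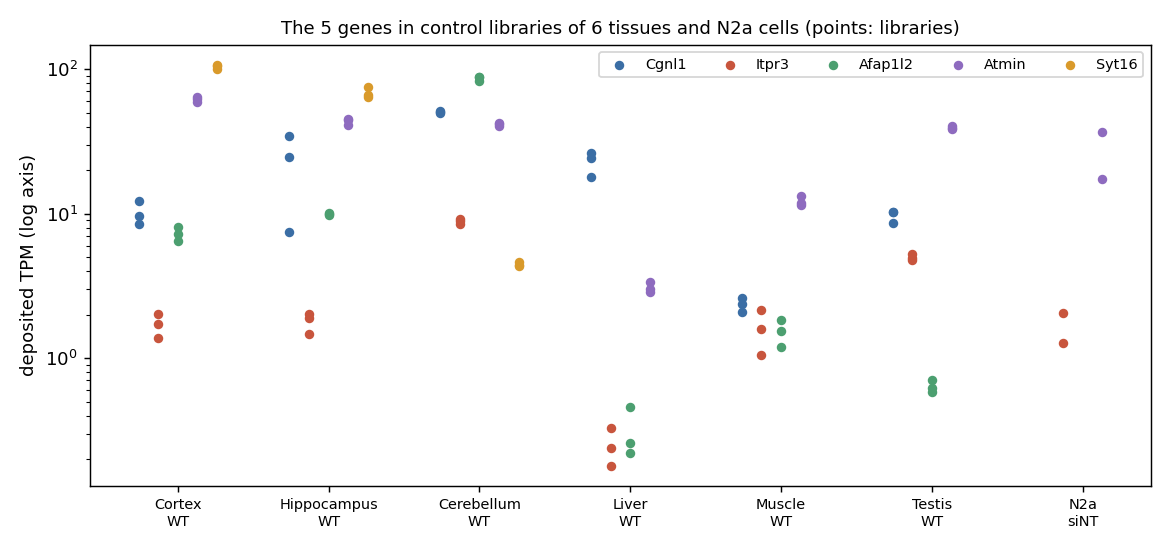
Deposited TPM of the 5 genes in each control library of 6 tissues and of N2a cells (log axis, points for libraries); a gene that a table does not list has no point. Syt16 falls from about 104 TPM in cortex to 4.45 TPM in cerebellum on average, while Afap1l2 spans 0.313 TPM in liver to 86.5 TPM in cerebellum.

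None of the 4 listed genes passed the test for KO against WT in liver, muscle or testis. The shares of all genes called by edgeR were 0.411% in liver, 4.04% in muscle and 4.27% in testis. At an unadjusted p under 0.05, 0 of the 4 genes passed in liver, 2 in muscle and 1 in testis, where the shares of all genes were 11.4%, 25.9% and 18.3%, and DESeq2 called 0 in each tissue. Fmr1 was lower in every KO library of the 3 tissues; in muscle the gap was the smallest, with WT at 12.005 to 17.6 CPM and KO at 8.05 to 10.3 CPM.

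In muscle, Cgnl1 held 9.78, 10.7 and 11.9 CPM in WT and 14.3, 14.7 and 16.1 CPM in KO, with every KO library above every WT library. Its log2 difference was 0.49 ± 0.13 (edgeR adjusted p = 0.0634), which missed the threshold. Several marker sums are given beside it as a selection, without a test. The 7 listed of 8 endothelial markers overlapped, at 357 to 564 CPM in WT and 526 to 610 CPM in KO muscle. The 6 listed of 7 meningeal fibroblast markers summed to 1203 to 2085 CPM in WT and 2438 to 3712 CPM in KO muscle. For 8 mural cell markers the sums were 674 to 835 CPM in WT and 847 to 881 CPM in KO. The 8 microglia markers summed to 65.7 to 75.2 CPM in WT and 100 to 106 CPM in KO. Their part in the Cgnl1 values was not tested. Atmin held 44.9, 37.9 and 36.7 CPM in WT muscle and 32.02, 34.0 and 33.6 CPM in KO muscle, a log2 difference of −0.26 ± 0.10 (edgeR adjusted p = 0.159).

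In testis, Afap1l2 held 1.25, 1.38 and 1.58 CPM in WT and 0.811, 0.828 and 0.831 CPM in KO. The groups did not overlap, but at 11 to 22 counts per library the log2 difference of −0.76 ± 0.35 had an adjusted p of 0.220 (edgeR). Cgnl1 and Itpr3 differed by −0.17 (edgeR adjusted p = 0.294) and −0.14 (adjusted p = 0.472) in testis, with overlapping libraries for both. Atmin in testis was 105, 113 and 112 CPM in WT and 105, 109 and 109 CPM in KO (edgeR adjusted p = 0.853). In liver, Cgnl1 held 84.6, 110 and 104 CPM in WT and 93.8, 96.9 and 110 CPM in KO (log2 difference 0.01, edgeR adjusted p = 0.991). The other 3 genes differed by 0.11 to 0.49 in liver (edgeR adjusted p 0.610 to 0.944).

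The first N2a experiment lists Itpr3 and Atmin only. Itpr3 held 9.85 and 10.6 CPM with siNT and 16.7, 5.38 and 21.4 CPM with siFmr1 (log2 difference 0.50 ± 0.59, edgeR adjusted p = 0.9999). Atmin held 93.8 and 76.3 CPM with siNT and 85.3, 70.6 and 81.6 CPM with siFmr1 (−0.10 ± 0.28). Neither group pair separated. edgeR called 0% of genes in this experiment, and neither gene passed at an unadjusted p under 0.05 (0.386% of all genes) or with DESeq2. Without the libraries labelled siNT 2 and siFmr1 3, which stand apart, the log2 differences were 0.19 for Itpr3 and −0.25 for Atmin (edgeR adjusted p = 0.9997 for each).

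In the co-transfection experiment all 5 genes are listed, but Cgnl1 (0 to 6.30 normalized counts) and Syt16 (0 to 1.97) are near 0 and did not pass the filter of a mean of 1. Itpr3, Afap1l2 and Atmin were tested with limma on log2(value + 1), which understates the change of low genes. Itpr3 passed the test with either siRNA. It held 200, 318 and 271 normalized counts with siNT, 343, 420 and 363 with siFmr1, and 87.7, 116 and 141 with siMbnl1, each with pcDNA. The siMbnl1 libraries were all below the siNT libraries and the siFmr1 libraries all above them.

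Itpr3 fell with siMbnl1 by a log2 difference of −1.19 (limma adjusted p = 0.000351, 32.8% of all genes called) and with siMbnl1 and cMBNL1, at 85.6, 119 and 117 normalized counts, of −1.28 (adjusted p = 0.000172, 33.7% called). Adding cMBNL1 to siMbnl1 left Itpr3 at a difference of −0.09 from siMbnl1 alone (limma adjusted p = 0.847, 2.24% called). With siFmr1 Itpr3 rose by 0.53 ± 0.20 (limma adjusted p = 0.0496, 37% called). That call is at the threshold: it ended with a pseudocount of 0.5 (adjusted p = 0.0501), without the low-value filter (0.0656), with only the 2 groups (0.0672), and without siNT 1, siNT 3, or any 1 of the 3 siFmr1 libraries (0.0679 to 0.191). With siFmr1 and nMBNL1 Itpr3 held 276, 199 and 231 normalized counts, a difference of −0.15 from siNT (limma adjusted p = 0.594, 41.1% called). Against siFmr1 alone it was lower by −0.68 (limma adjusted p = 0.0934, 1.76% called), and with a fit of those 2 groups the adjusted p was 0.00299. The direct contrast of siFmr1 with siMbnl1, added after the values were seen, gave a log2 difference of 1.72 (limma adjusted p = 1.04e-05, 35.3% called). These comparisons share their siNT, siFmr1 or siMbnl1 samples.

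Atmin was at 1989, 2162 and 1848 normalized counts with siNT and at 1831, 1822 and 1729 with siFmr1, a difference of −0.15 (limma adjusted p = 0.159). With siMbnl1 and cMBNL1 it held 2294, 2514 and 2391 normalized counts, above each siNT library, and rose by 0.27 (limma adjusted p = 0.0204). That call ended with only the 2 groups (0.0852) and without siNT 3 (0.0834), cMBNL1 2 (0.0849) or cMBNL1 3 (0.0516). Against siMbnl1 alone the difference was 0.28 (limma adjusted p = 0.0854; 0.00439 with only the 2 groups). Afap1l2 was low, at means of 7.47 to 16.2 normalized counts per group. Its difference from siNT passed in none of the 4 groups (limma adjusted p = 0.438 for siFmr1 and 0.178 for siMbnl1). The siMbnl1 value moves with 1 library: without siMbnl1 1, which held 15.4 against 2.42 and 4.62 normalized counts, it was −1.47 (adjusted p = 0.0114). In the added contrast of siFmr1 with siMbnl1, Afap1l2 was higher by 1.32 (limma adjusted p = 0.0338). That call ended with only the 2 groups (0.0549) and without siFmr1 1, siFmr1 2, siMbnl1 2 or siMbnl1 3 (0.0764 to 0.181).

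**Figure D5:**
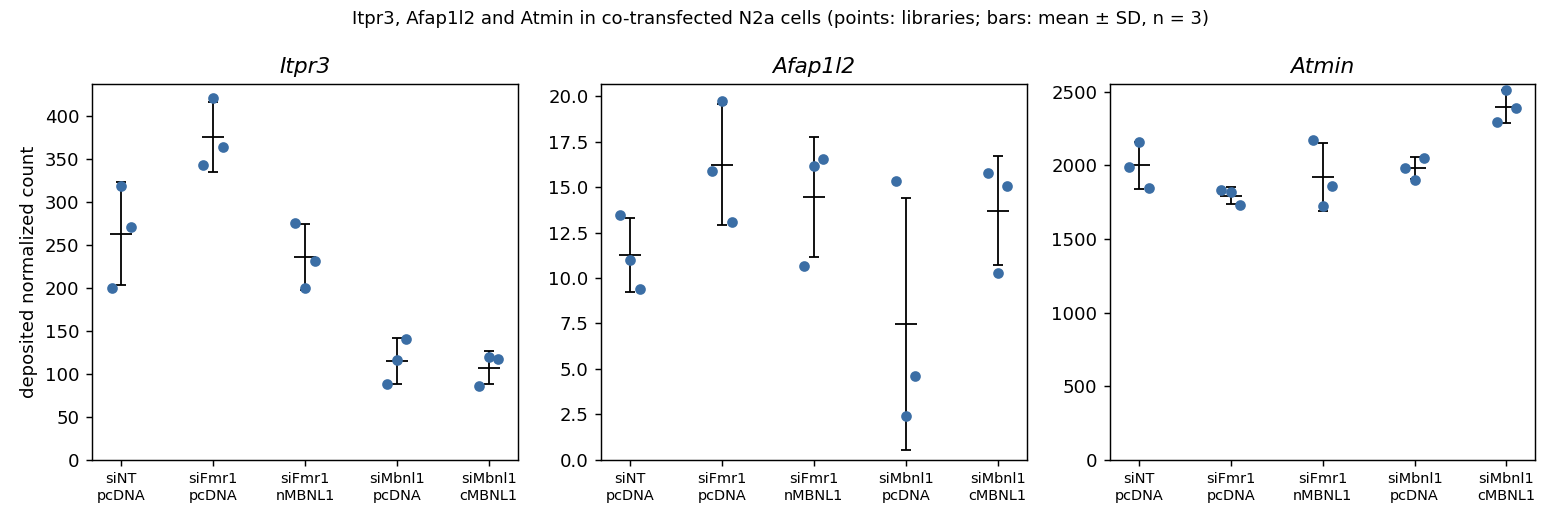
Deposited normalized counts of Itpr3, Afap1l2 and Atmin in each co-transfected N2a library (points), with group mean and SD (n = 3), on linear axes from 0. Itpr3 is at 342.6 to 420.5 with siFmr1 and at 85.6 to 141 in both siMbnl1 groups, while Atmin stays between 1725 and 2514 in every library.

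Other genes of each pathway were counted from lists chosen around the 5 genes. In cortex and hippocampus, none passed the edgeR test for KO against WT in any of the 5 lists. In cerebellum 1 did: the ryanodine receptor gene Ryr3, another calcium release channel of the endoplasmic reticulum, fell by 0.54 ± 0.07 on the log2 scale (edgeR adjusted p = 0.00895). At an unadjusted p under 0.05 the cortical counts were 5 of 34 tested cell junction genes, 8 of 37 IP3 receptor and store calcium genes, 6 of 25 AFAP and SRC-PI3K adaptor genes, 7 of 28 ATM and ATMIN genes and 13 of 26 synaptotagmin family genes, against 21% of all genes. In the same order they were 7 of 35, 5 of 37, 2 of 25, 1 of 28 and 4 of 26 in hippocampus (12.5% of all genes), and 9 of 34, 5 of 38, 3 of 25, 3 of 28 and 5 of 25 in cerebellum (8.72% of all genes). Whether a list stands apart from other genes was not tested. The median log2 difference of each list in each region lay between −0.07 and 0.04, against medians of 0.00 over all genes. DESeq2 called 12 list genes in cortex, 4 in hippocampus and 4 in cerebellum, and edgeR with all 18 libraries in 1 fit called 24 in cortex and 0 in cerebellum. The Ryr3 call was lost without cerebellar WT 1, KO 1, KO 2 or KO 3. Without cerebellar WT 3 the cerebellar count was 6, and without cortical WT 3 the cortical count was 15. The shares of all genes called under these alternatives were not counted, so these list counts have no background here.

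The list genes nearest to a call were of several kinds. In cortex the synaptotagmin gene Syt4 and the Syt16 relative Syt14 were higher in KO by 0.30 ± 0.05 and 0.32 ± 0.06 (edgeR adjusted p = 0.0668 for both). In hippocampus the oligodendrocyte tight junction gene Cldn11 was lower in KO by −0.39 ± 0.06 (edgeR adjusted p = 0.0671), beside the lower oligodendrocyte marker sum given above, of which it is a part.

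None of the close relatives of the 5 genes passed the test in any brain region. Itpr1, the IP3 receptor of Purkinje cells, differed by −0.21, −0.10 and −0.12 in cortex, hippocampus and cerebellum (edgeR adjusted p 0.280 to 0.634). Itpr2 differed by 0.03, 0.14 and 0.15 (edgeR adjusted p 0.279 to 0.843). Cgn, which encodes the junction scaffold cingulin, differed by −0.28 ± 0.08 in cerebellum (edgeR adjusted p = 0.252). Afap1 was within 0.04 of 0 in each region, and Afap1l1 differed by −0.30 ± 0.09 in cortex (edgeR adjusted p = 0.133).

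The same lists were counted outside the brain. In muscle, where 4.04% of all genes were called, 8 list genes were higher in KO and none lower: Cdh2, Itpkb, Sh3pxd2b, Pik3r1, Ret, Actn4, Syt15 and Sytl2. Their log2 differences ran from 0.53 ± 0.11 for Pik3r1, a regulatory subunit of PI3 kinase, to 1.64 ± 0.31 for Syt15 (edgeR adjusted p 0.0283 to 0.0467), beside the higher fibroblast and mural markers above. In testis, where 4.27% of all genes were called, Cldn3, Itpkb and Afap1 fell by 0.41, 0.27 and 0.22, and Rif1, a DNA repair factor, rose by 0.23 (edgeR adjusted p 0.00325 to 0.0489). The 7 meningeal fibroblast markers summed to 200 to 242 CPM in WT and 159 to 169 CPM in KO testis. Their part in these differences was not tested. In liver, where 0.411% were called, the phospholipase gene Plcd3 fell by 2.66 ± 0.42 (edgeR adjusted p = 0.0362). In N2a cells with siFmr1 and pcDNA, where 37% of all genes were called, 3 of the 28 ATM and ATMIN genes rose and 13 fell. The list median was −0.25 against 0.03 over all genes. Chek2 (−0.66), Smc3 (−0.49) and Rad50 (−0.65) fell and H2afx (0.70) rose (limma adjusted p 1.11e-05 to 7.56e-05). Of 29 tested cell junction genes 3 rose and 6 fell, and of 38 IP3 receptor and store calcium genes 9 and 5. The counts were 8 and 6 of 25 AFAP and SRC-PI3K adaptor genes and 4 and 3 of 24 synaptotagmin family genes.

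Genes whose brain profile was most like each of the 5 were found by Pearson correlation of log2 CPM over the 18 libraries, among 15504 genes. Over levels, where region differences dominate, they were Mccc1 (0.981), Tpp1 and Acadvl for Cgnl1, and Tulp4 (0.973), Chd8 and Zfp395 for Itpr3. Afap1l2 was most like Nkain1 (0.994), Arap1 and Eml3, Atmin most like Gars (0.946), Lbh and D17Wsu92e, and Syt16 most like Sipa1l1 (0.993), Kcnh3 and Rasal2. After the mean of each region and genotype was removed, so that only the spread within groups remained, other genes came first. Cgnl1 then followed Steap2 (0.992), Perp and Trpm3. The highest were Alox5ap (0.805) for Itpr3, Hydin (0.913) for Afap1l2, Ncapg (0.899) for Atmin and Myh2 (0.924) for Syt16. Zfp395 stood among the 3 nearest genes of Itpr3 in both measures.

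Skipped exons of 4 of the 5 genes are listed in the authors' deposited tables of rMATS junction reads, and none of Cgnl1. The tables do not say which genotype or treatment each of their 2 replicate sets holds, so reads are given over all 6 libraries of a table. A 54-base exon of Afap1l2 (chr19:57002250-57002303, overlapping annotated coding and UTR stretches) was mostly skipped: the authors' deposited table for cerebellum gives 6 inclusion and 99 skipping reads. In cortex the authors' deposited table gives 1 inclusion and 7 skipping reads for it, in hippocampus 1 and 14, and in muscle 1 and 6. The coding exon of Atmin at chr8:116954714-116954913 (200 bases) was included nearly always, with 232 inclusion and 2 skipping reads in hippocampus and 1660 and 1 in testis in the authors' deposited tables. A 249-base coding exon of Afap1l2 had 26 inclusion reads and 1 skipping read in 1 of the authors' deposited co-transfection tables. A 258-base exon of Syt16 (chr12:74222582-74222839, coding and UTR) had 149 inclusion and 3 skipping reads in hippocampus in the authors' deposited table. For Itpr3, 6 coding exons appear in the authors' deposited co-transfection tables, with 55 to 108 inclusion and 1 to 4 skipping reads each. The authors' deposited false discovery rate is 1.0 for each of these exons. Junction reads without molecular identifiers are not independent molecules, and counts of 1 to 7 reads give little precision.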

How the data were processed

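Bulk RNA sequencing of 56 samples was used as deposited. Gene tables held integer counts per gene and sample and TPM, per the file headers, beside the authors' deposited log2 fold changes and adjusted p-values, which were used only to check the re-computed log2 values. Values of the co-transfection table were a signal on a normalized count scale as deposited, so its depth is unknown. Skipped exon tables held other values, the junction reads that the authors deposited from rMATS. The submitters' processing notes name CASAVA, FastQC 0.11.8, Trimmomatic 0.39, Bowtie2 2.3.5, STAR 2.6.1, RSEM 1.3.1 and DESeq2 1.16.1, with builds GRCm38 and mm10. The muscle table had 4 value columns that matched no sample and were not used.

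Counts were tested in R 4.3.3 with edgeR 4.0.16 (filterByExpr, TMM, quasi-likelihood F test), once per tissue or region, with the 9 WT brain libraries in 1 fit. Normalized counts were tested with limma 3.58.1 (trend) on log2(value + 1) over genes with a mean of at least 1, with all 15 libraries in 1 fit. Calls required a Benjamini-Hochberg adjusted p below 0.05 over all genes tested. CPM use TMM-scaled library sizes. Scripts were tested on simulated data, and figures drawn with matplotlib.

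The 5 genes, the lists and the markers were chosen with earlier results of these data known. The named genes were the 5 in every library, Fmr1, up to 4 called genes per list and comparison by smallest p (the 2 of smallest p where none was called), the relatives Cgn, Itpr1, Itpr2, Afap1, Afap1l1 and Syt14, and for each of the 5 the 3 genes of highest correlation in levels and in deviations; a selection of these is printed. Alternatives were DESeq2 1.42.0, other size factors, no filter, all 18 brain libraries, a replicate block, another pseudocount, fits of only 2 groups and each library left out. Precision is limited by 3 samples per group, or 2 for siNT in the first N2a experiment.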

Additional observations from a re-analysis of the deposited data

How the results depend on the processing

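Without a test, the brain differences of Afap1l2, Atmin and Syt16 between KO and WT were negative in each region under every alternative run, as were those of Itpr3 in hippocampus and cerebellum and of Cgnl1 in cerebellum. Signs turned as single libraries were left out for Cgnl1 in cortex (−0.10 to 0.17) and hippocampus (−0.68 to 0.45) and for Itpr3 in cortex (−0.22 to 0.056). Syt16 stayed between −0.65 and −0.49 in cortex, −0.69 and −0.58 in hippocampus and −0.93 and −0.87 in cerebellum. Whether replicate numbers pair samples across regions is not settled by these data. Correlations of same-numbered WT and KO deviations ran from −0.56 to 0.51 in hippocampus and from −0.22 to −0.15 in cortex. Between WT regions they ran from −0.055 to 0.16 for cortex with hippocampus, −0.012 to 0.22 for cortex with cerebellum and 0.045 to 0.17 for hippocampus with cerebellum. Best matches fell on the same number in 2 of 3, 2 of 3 and 1 of 3 cases for these WT pairs. KO hippocampus and KO cerebellum correlated at 0.081 to 0.21, with 3 of 3 best matches on the same number. For KO cortex it was 0 of 3 with KO hippocampus and 1 of 3 with KO cerebellum. With the block, 4, 5 and 5 of the 5 genes were called between WT regions, as without it. The replicate block moved no count of called genes by over 1.5 times; under it Itpr3 in the first N2a experiment was −0.093 in place of 0.50.

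Called genes among the 5 with siFmr1 against siNT went from 1 to 0 with a pseudocount of 0.5, with no filter and with only the 2 groups, and were 0 to 1 with libraries left out. The count for siMbnl1 against siNT was 1 to 2, that for cMBNL1 against siNT 1 to 2 (1 with only the 2 groups) and that for siFmr1 against siMbnl1 1 to 2 with libraries left out. With only the 2 groups, nMBNL1 against siFmr1 and cMBNL1 against siMbnl1 each went from 0 to 1. Called list genes went from 0 to 12 in cortex, from 0 to 4 in hippocampus and from 1 to 4 in cerebellum with DESeq2, and to 24 in cortex and 0 in cerebellum with all 18 libraries. With libraries left out they were 0 to 15 in cortex and 0 to 6 in cerebellum. The cause of these changes was not tested. Shares of all genes called under these alternatives were not counted, so the list counts have no background here.

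Among tested differences, signs turned only for those that had not passed the test, except hippocampal against cortical Cgnl1, which was −0.41 without the choroid-rich libraries. With libraries left out, the ranges were −0.086 to 0.21 for Itpr3 in WT hippocampus against cortex, −0.095 to 0.086 for Cgnl1, −0.35 to 0.50 for Afap1l2 and −0.0027 to 0.28 for Atmin in liver, and −0.088 to 0.39 for Itpr3 and −0.18 to 0.11 for Afap1l2 in muscle. In N2a cells they were −0.25 to 0.052 for Atmin in the first experiment and −0.067 to 0.046 for Atmin with siMbnl1. With nMBNL1 against siNT, Itpr3 ran from −0.33 to 0.0029 and Atmin from −0.15 to 0.012. With nMBNL1 against siFmr1, Afap1l2 ran from −0.30 to 0.029 and Atmin from −0.00090 to 0.17, and with cMBNL1 against siMbnl1 Itpr3 ran from −0.27 to 0.073. Low counts limit Itpr3 and Afap1l2 in liver, Afap1l2 in testis and Syt16 in cerebellum.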

Other observations

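Within their groups, the 5 genes did not vary together. Over the 18 brain libraries, Pearson correlations of their deviations from the mean of each region and genotype ran from −0.66 for Atmin with Cgnl1 to 0.44 for Itpr3 with Afap1l2. These are descriptions over libraries that share 6 groups.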
